A study of Mus musculus with 3 samples.

Results

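Rab GTPases are small GTP-binding proteins that mark membranes and decide which vesicles bud, travel and fuse. A Rab protein cycles between a GTP-bound form on the membrane, where it recruits effectors such as tethers and motors, and a GDP-bound form held in the cytosol by a dissociation inhibitor. Guanine nucleotide exchange factors (GEFs) switch it on, GTPase-activating proteins (GAPs) switch it off, and lipid anchors on cysteines at its end hold it on the membrane. In T cells, Rab5 acts at early endosomes, Rab11 and Rab35 at recycling endosomes, and Rab8, Rab11 and Rab29 return internalized T cell receptors to the contact with the antigen-presenting cell, the same route on which the intraflagellar transport protein IFT20 works.

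The Rab genes described here are those whose symbol begins with Rab and a digit and that had 10 or more UMIs (unique molecular identifiers, 1 for each RNA molecule that was captured) over 3 single-cell RNA libraries. Of 72 such symbols in the gene table, 59 passed, out of 13898 genes with 10 or more UMIs. The rule reads the symbol alone, so 48 of the 59 were Rab GTPases and 11 were not: *Rab3gap1*, *Rab3gap2*, *Rab3ip*, the 5 *Rab11fip* genes and the noncoding *Rab10os*, *Rab26os* and *Rab11fip4os1*. Of the 13 symbols that did not pass, 8 had 0 UMIs (*Rab3c*, *Rab7b*, *Rab9b*, *Rab17*, *Rab27b*, *Rab38*, *Rab44* and *Rab11fip4os2*). The lowest that passed was *Rab39* with 11 UMIs, and the highest that did not was *Rab25* with 7.

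The libraries came from CD4+ T cells of the spleens of male C57BL/6 mice aged 5 to 10 weeks, enriched for naïve cells and sorted as 7AAD-CD3+CD4+ cells. The mice of the 0hr-WT and 24hr-WT libraries were labelled Ift20 f/f, with no Cre. Those of the 24hr-KO library were Ift20 f/f CD4 cre, in which a Cre driven by the *Cd4* promoter deletes the floxed part of *Ift20*, so all 3 libraries carried the floxed allele and Cre itself had no control. Cells of 0hr-WT were held in DPBS, and those of 24hr-WT and 24hr-KO were stimulated for 24 h through antibodies to CD3 and CD28 at 1 μg/mL each. No unstimulated IFT20-KO library was analysed here, and the number of mice behind a library was not given in the sources used here.

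Each condition had 1 library, so no difference below was tested, and every interval covers counting error only. Cells were kept if they had over 200 genes and less than 15% of their UMIs from mitochondrial genes. By this filter, 8031, 9903 and 13920 cells remained in 0hr-WT, 24hr-WT and 24hr-KO, with medians of 4627, 12167 and 5014.5 UMIs per cell. Cells under 5000 UMIs made up 60.9%, 24.1% and 49.99% of them, and 125 to 207 cell barcodes were shared by a pair of libraries. In cells of 5000 to 20000 UMIs, used below as a depth range, the medians were 5856, 13106.5 and 11596 UMIs. This range thus did not match the depth of 0hr-WT to that of the stimulated libraries. The 5 T cell markers summed to between 3009 and 4029 CPM, the UMIs of a gene per 1000000 UMIs of its library, with none at 0. The summed levels of 4 B cell, 4 myeloid and 3 NK cell markers were 0.197 to 4.19 CPM, with the B cell marker *Ms4a1* at 0 UMIs in 0hr-WT and 1 UMI in each stimulated library. Both CD8 T cell markers together had 28.7 CPM in 0hr-WT, 9.16 in 24hr-WT and 11.5 in 24hr-KO, of which *Cd8a* had at most 0.291. The 4 naïve markers summed to 2706, 695.7 and 823 CPM and the 4 activation markers to 150.1, 621 and 551 CPM, and their part in the ratios below was not tested. *Ift20* had 64.4 CPM in 0hr-WT, 76.0 in 24hr-WT and 6.60 in 24hr-KO, a log2 ratio of -3.52 (95% interval -3.64 to -3.41) for 24hr-KO over 24hr-WT, as its label states.

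The *Rab5*, *Rab8*, *Rab11* and *Rab29* genes differ in bases at the end of their coding sequence, which encodes the cysteines that receive the lipid anchor. Not every such base difference changes the protein. The last 45 coding bases before the stop codon, from GENCODE M21 (GRCm38), are shown 5′ to 3′ with the cysteine codons in capitals. Where the counted reads fell on these transcripts was not examined, so the ends do not show that UMIs of paralogues were told apart.
Rab5a: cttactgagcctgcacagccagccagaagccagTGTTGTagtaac
Rab5b: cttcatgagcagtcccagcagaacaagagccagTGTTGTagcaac
Rab5c: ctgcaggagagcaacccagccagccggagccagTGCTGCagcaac
Rab8a: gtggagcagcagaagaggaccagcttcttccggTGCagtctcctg
Rab8b: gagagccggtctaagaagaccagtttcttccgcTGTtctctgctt
Rab11a: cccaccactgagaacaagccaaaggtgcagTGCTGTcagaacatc
Rab11b: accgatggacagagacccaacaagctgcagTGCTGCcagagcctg
Rab29: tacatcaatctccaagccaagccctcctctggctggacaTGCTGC
The *Rab8* genes ended with 1 cysteine codon in this window and the others with a pair of adjacent ones, which in *Rab29* were the very last codons. Over the whole coding sequence, *Rab8a* and *Rab8b* were 77.5% identical with a longest identical run of 17 bases, and *Rab11a* and *Rab11b* 75.04% with a run of 14 bases. The *Rab5* pairs were 73.5% to 76.6% identical, with runs of 22 to 35 bases. On the GRCm38 assembly, *Rab5a* lay at chr17:53479234-53507680, *Rab5b* at chr10:128677175-128696264 and *Rab5c* at chr11:100715009-100738215. *Rab8a* lay at chr8:72161200-72183904, *Rab8b* at chr9:66843664-66919687, *Rab11a* at chr9:64715299-64737758, *Rab11b* at chr17:33742484-33760530 and *Rab29* at chr1:131867224-131872887.

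Rab genes were a small and unevenly used part of the transcriptome. Their UMIs summed to 2292 CPM in 0hr-WT, 1912 in 24hr-WT and 1914 in 24hr-KO. In UMIs per cell, which carries both sequencing depth and the RNA content of the cells, the sums were 10.6, 22.6 and 14.6. The 10 highest members took 56.8%, 63.3% and 61.1% of the Rab UMIs, and 17, 11 and 12 members exceeded 50 CPM. In 0hr-WT the order began with *Rab8a* (183 CPM, 95% Poisson interval 179 to 187), *Rab11b* (173, 169 to 177), *Rab2a* (165), *Rab1b* (146) and *Rab14* (131). A UMI stands for 1 molecule and was not divided by gene length, so this order is one of captured molecules. The first 3 of these are carriers of 3 different routes, exocytosis, recycling and the Golgi, and the intervals of *Rab8a* and *Rab11b* did not overlap. In both stimulated libraries the order was *Rab10*, *Rab2a*, *Rab11b*, *Rab8a* and *Rab1b*.

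**Figure D1:**
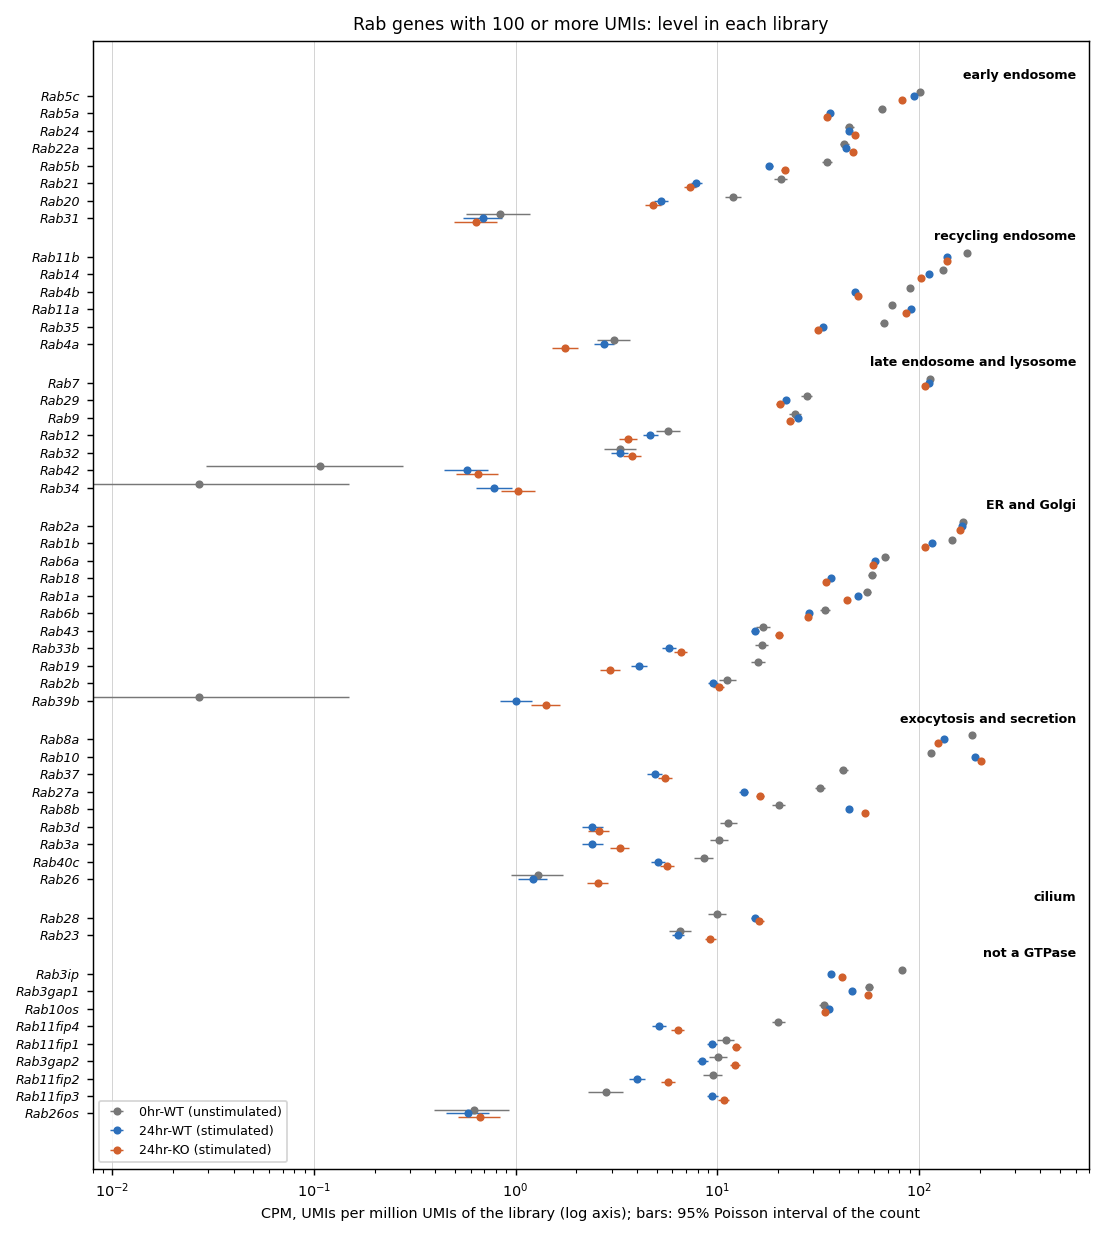
CPM (log axis) of the 52 Rab genes with 100 or more UMIs, grouped by the membrane they are known from, in 0hr-WT (grey), 24hr-WT (blue) and 24hr-KO (orange), with 95% Poisson intervals. The blue and orange points lie within 1.5-fold of each other in 50 of the 52 rows, and the blue and grey points in 28. The grey point stands far apart for *Rab37*, at 42.1, 4.89 and 5.51 CPM, the member with the lowest ratio for stimulation.

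The first comparison asked how the Rab genes stood after 24 h of stimulation. As a family they shifted little: the median log2 ratio of 24hr-WT over 0hr-WT was -0.23 over the 59 members and -0.11 over all 13896 genes, with 43 members lower and 16 higher, where 7508 of all genes were lower and 6388 higher. At least 2-fold higher were 6 members, 10.2% of them, where 18.7% of all genes were. At least 2-fold lower were 12 members, 20.3% of them, where 23.7% of all genes were. The members' ratios lay closer to 0 than those of other genes, with 31 of 59 (52.5%) within 1.5-fold of equal CPM against 36.7% of all genes. Median-ratio scaling moved the median of all genes by 0.11 and left these counts at 6 and 11. Counted as UMIs per cell, with no scaling between the libraries, 39 members were at least 2-fold higher and 1 lower, where 57.6% and 6.74% of all genes were. Sequencing depth and RNA content per cell cannot be told apart in these counts, and the directions below hold for CPM only.

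**Figure D2:**
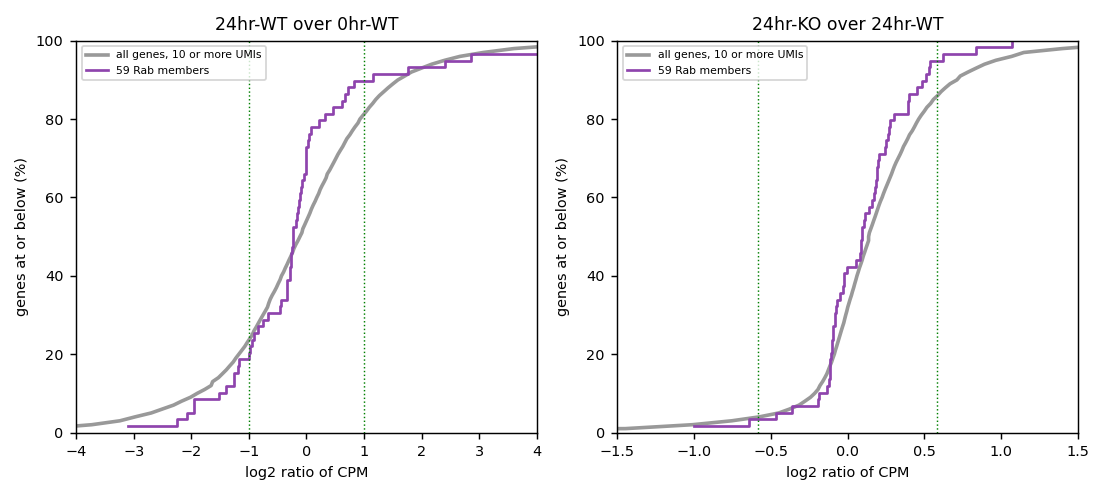
Cumulative share of genes (%) at or below each log2 ratio of CPM, for the 59 Rab genes (purple) and all genes with 10 or more UMIs (grey), for stimulation (left, 2-fold lines) and for IFT20-KO (right, 1.5-fold lines). The purple curve is the steeper one around 0 in both panels, with medians of -0.23 and 0.09.

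Early endosome Rabs had a median log2 ratio of -0.56 over 8 genes, beside -0.11 over all genes, and a range from -1.39 to 0.03. Of the 8, 7 were lower (7508 of all 13896 genes were). Only 2 of them were at least 2-fold lower, where 23.7% of all genes were. The Rab5 paralogues, which drive the fusion of early endosomes, differed from each other. *Rab5a* had 65.4 CPM in 0hr-WT, 36.3 in 24hr-WT and 35.1 in 24hr-KO, and the log2 ratio for stimulation was -0.85 (-0.92 to -0.78). *Rab5b* had 34.9, 18.1 and 21.6 CPM in the same order, with a ratio of -0.95 (-1.05 to -0.85). *Rab5c* had 102, 94.1 and 82.3 CPM, with a ratio of -0.11 (-0.17 to -0.06). The unstimulated library was thus the highest for all 3 genes in CPM, by little for *Rab5c*. Under median-ratio scaling *Rab5c* was about equal in 0hr-WT and 24hr-WT, and all 3 genes turned higher in 24hr-WT in UMIs per cell. *Rab21*, known for the uptake of integrins, had 20.7, 7.87 and 7.31 CPM, a ratio of -1.39 (-1.53 to -1.25). *Rab20*, an endosome and phagosome Rab, had 12.0, 5.28 and 4.80 CPM, a ratio of -1.18 (-1.36 to -1.01).

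Recycling endosome Rabs had a median of -0.28 over 6 genes, with 1 of them higher (6388 of all 13896 genes were). That one was *Rab11a*, at 73.5 CPM in 0hr-WT, 91.4 in 24hr-WT and 86.2 in 24hr-KO, with a log2 ratio of 0.31 (0.25 to 0.38) for stimulation that stayed above 0 under all 7 alternative settings. *Rab11b*, the more abundant paralogue, had 173, 137 and 137 CPM and a ratio of -0.33 (-0.37 to -0.29). *Rab35*, which returns T cell receptors by a fast route, had 67.0, 33.5 and 31.6 CPM, with a ratio of -1.002 (-1.07 to -0.93). Among these, the unstimulated library was the lowest for *Rab11a* and the highest for the other genes named. *Rab4a*, another Rab of fast recycling, was low, with 3.07 and 2.75 CPM before and after stimulation, a difference within the counting interval (-0.47 to 0.16). Its paralogue *Rab4b* took 96.7% of the Rab4 UMIs in 0hr-WT and 94.6% in 24hr-WT, and was lower after stimulation. In cells of 5000 to 20000 UMIs *Rab4b* had 89.9 and 50.8 CPM, a log2 ratio of -0.82 (-0.90 to -0.74). *Rab14*, which links the Golgi and endosomes, had 131 and 112 CPM.

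Late endosome and lysosome Rabs had a median of 0.01 over 8 genes, 4 of them lower (7508 of all 13896 genes were), with a range from -0.34 to 4.87. *Rab29*, which acts with IFT20 in the recycling of the T cell receptor, had 27.8 CPM in 0hr-WT, 21.9 in 24hr-WT and 20.5 in 24hr-KO. Its log2 ratio for stimulation was -0.34 (-0.45 to -0.24), and it was at -0.35 in cells of 5000 to 20000 UMIs. *Rab12*, which sends the transferrin receptor to lysosomes, had 5.71, 4.66 and 3.63 CPM. *Rab34* (1, 92 and 110 UMIs) and *Rab42* (4, 67 and 69 UMIs), both named after their values were seen, were the group's members past 2-fold. Their log2 ratios for stimulation were 4.87 (2.35 to 10.19) and 2.41 (0.99 to 4.33), wide intervals that rest on 1 and 4 UMIs in 0hr-WT.

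Exocytosis and secretion Rabs had a median of -0.61 over 10 genes and a range from -3.11 to 2.87. Of them, 4 (40.0%) were at least 2-fold lower and 2 (20.0%) at least 2-fold higher, where 23.7% and 18.7% of all genes were. *Rab37*, a Rab of secretory granules, had 42.1 CPM in 0hr-WT, 4.89 in 24hr-WT and 5.51 in 24hr-KO. Its log2 ratio of -3.11 (-3.25 to -2.97), an 8.62-fold difference, was the lowest of the 59 members, and it stayed at -1.75 in UMIs per cell, where it was the member at least 2-fold lower. *Rab3a* had 10.2, 2.40 and 3.28 CPM, and *Rab3d*, its paralogue in regulated exocytosis, had 11.4, 2.40 and 2.59. The ratios of both were near each other, -2.08 (-2.31 to -1.86) and -2.24 (-2.47 to -2.02). *Rab27a*, which docks secretory granules, had 32.4, 13.5 and 16.3 CPM, a ratio of -1.26 (-1.37 to -1.15).

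The Rab8 family stood out within that group, because its paralogues went in opposite directions in CPM. *Rab8a*, which carries vesicles to the plasma membrane and to the cilium, had 183 CPM in 0hr-WT, 133 in 24hr-WT and 124 in 24hr-KO, with a log2 ratio of -0.46 (-0.50 to -0.42) for stimulation. *Rab8b* had 20.1, 44.8 and 54.2 CPM, with a ratio of 1.15 (1.04 to 1.26). Both ratios were nearly the same in cells of 5000 to 20000 UMIs, at -0.41 and 1.15, and that of *Rab8a* turned above 0 in UMIs per cell (0.90). In that range the medians were 5856 UMIs in 0hr-WT and 13106.5 in 24hr-WT, so depth was not matched. *Rab10*, a close relative of Rab8, had 115, 190 and 203 CPM, the highest Rab level of both stimulated libraries, and a ratio of 0.72 (0.68 to 0.77). It shares exonic positions with *Rab10os*, which had 33.7, 35.8 and 34.1 CPM, and the strand setting of the counting was not given in the sources used here. *Rab13*, named after its values were seen, had 2, 46 and 39 UMIs, with a ratio of 2.87 (0.93 to 5.96).

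Rabs of the endoplasmic reticulum and Golgi had a median of -0.21 over 14 genes, with 11 lower (7508 of all 13896 genes were). Of the 14, 2 (14.3%) were at least 2-fold lower, where 23.7% of all genes were. *Rab2a*, an abundant carrier, had 165, 164 and 160 CPM, and its log2 ratio for stimulation was -0.01 (-0.05 to 0.03). *Rab1b*, which moves cargo from the endoplasmic reticulum to the Golgi, had 146, 116 and 107 CPM, a ratio of -0.34 (-0.38 to -0.29). *Rab19* had 15.9, 4.09 and 2.95 CPM, a ratio of -1.96 (-2.14 to -1.78), and *Rab33b*, which acts in Golgi traffic and autophagy, had 16.6, 5.78 and 6.59 CPM, a ratio of -1.52 (-1.68 to -1.36). *Rab39b* had 1 UMI in 0hr-WT, 118 in 24hr-WT and 150 in 24hr-KO. Its ratio of 5.23 (2.72 to 10.54) was the highest of the members, on a single UMI before stimulation, and no UMI of it was found in the 0hr-WT cells of 5000 to 20000 UMIs. Of the cilium Rabs, *Rab28* had 9.94, 15.3 and 16.2 CPM, a ratio of 0.63 (0.46 to 0.79), and *Rab23* 6.54, 6.39 and 9.23 CPM.

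Among the members that are not GTPases, the effectors of Rab11 were spread over both ends of the list. *Rab11fip3*, which links Rab11 endosomes to motors at the centrosome, had 2.80 CPM in 0hr-WT, 9.47 in 24hr-WT and 10.8 in 24hr-KO, with a log2 ratio of 1.76 (1.47 to 2.06) for stimulation. *Rab11fip4* had 20.1, 5.16 and 6.37 CPM, with a ratio of -1.96 (-2.12 to -1.81). The pair thus exchanged order, and both kept their directions under all 7 alternative settings. *Rab11fip2* had 9.51, 3.99 and 5.68 CPM, a ratio of -1.25 (-1.45 to -1.05). *Rab11fip1* had 11.04, 9.43 and 12.4 CPM, a ratio of -0.23 (-0.39 to -0.06). *Rab11fip5* and the noncoding *Rab11fip4os1* had 26 and 60 UMIs in all. *Rab3ip*, the GEF that switches on Rab8, had 82.5, 36.4 and 41.5 CPM, a ratio of -1.18 (-1.25 to -1.11).

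**Figure D3:**
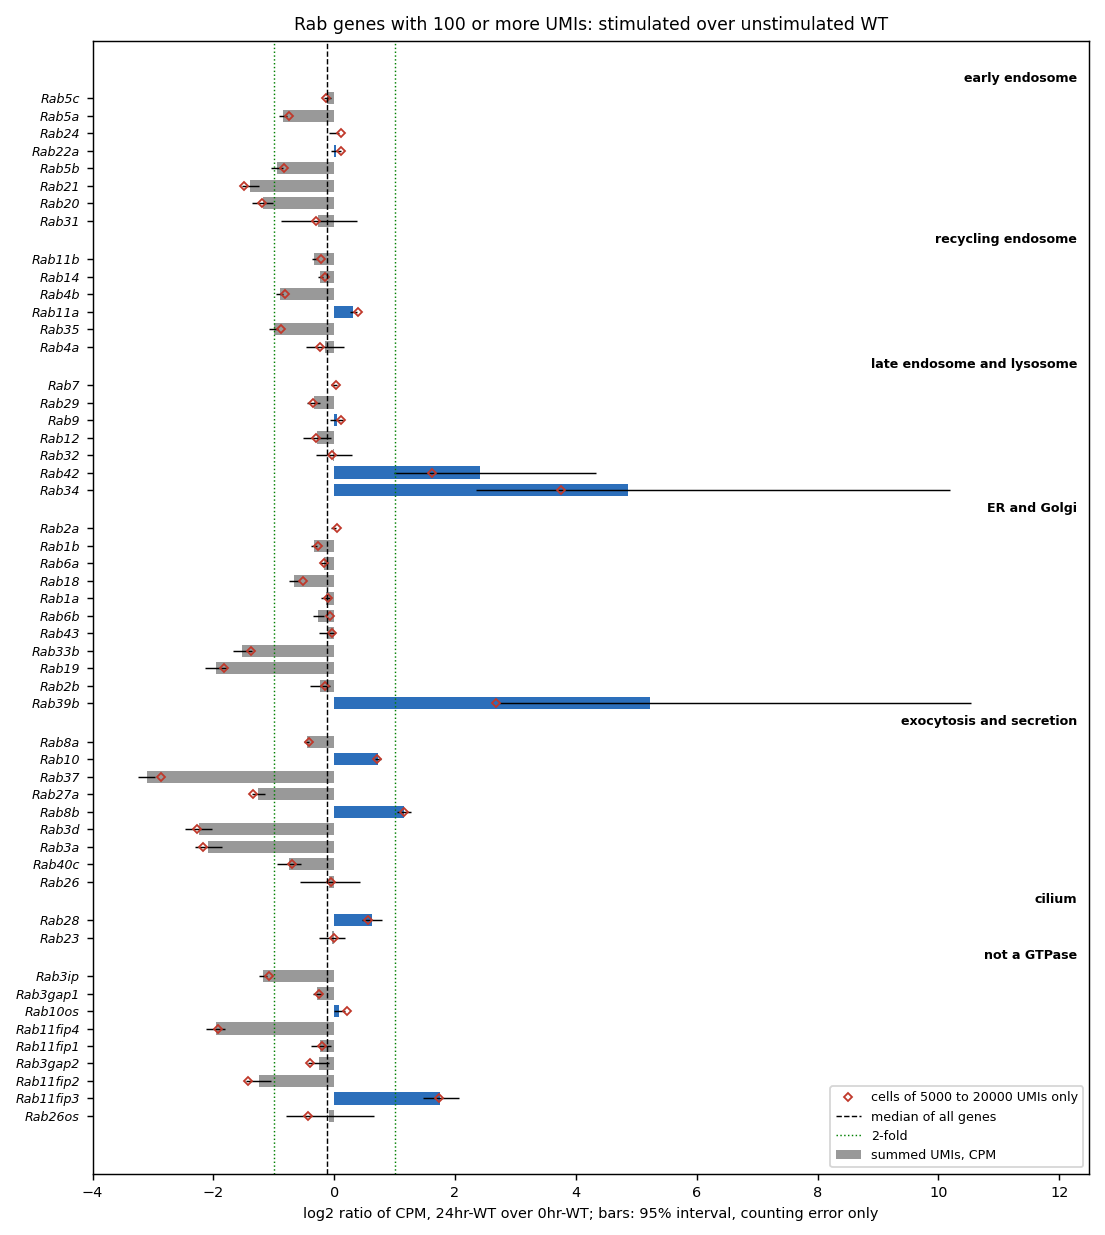
Log2 ratio of CPM, 24hr-WT over 0hr-WT, for the 52 Rab genes with 100 or more UMIs (bars, blue higher and grey lower, with 95% counting intervals), and the same ratio in cells of 5000 to 20000 UMIs (red diamonds). That range did not match the depth of both libraries. The diamonds lie near the ends of the bars for *Rab8b* (1.15 in both) and *Rab37* (-3.11 and -2.87), and away from it for *Rab39b* (5.23 and 2.67), which had 0 UMIs in those 0hr-WT cells and was set to the floor of 3 counts.

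A share within a family does not depend on how the libraries were scaled, but it does depend on which cells are counted. In 24hr-WT, *Rab8a* and *Rab8b* had 11136 and 3346 UMIs in cells of 5000 to 20000 UMIs, but 614 and 518 in cells under 5000. In 24hr-KO they had 9468 and 3410, but 2323 and 1819. *Rab5c* and *Rab5a* had 7981 and 2882 in 24hr-WT, but 277 and 334. Cells under 5000 UMIs were 24.1% of 24hr-WT and 49.99% of 24hr-KO, and their part in the shares was not tested. *Rab8b* took 9.92% of the Rab8 UMIs in 0hr-WT (95% Clopper-Pearson interval 9.26% to 10.6%), 25.2% in 24hr-WT (24.6% to 25.8%) and 30.4% in 24hr-KO (29.7% to 31.0%). *Rab11a* took 29.8%, 40.0% and 38.6% of the Rab11 UMIs. *Rab5c* took 50.4%, 63.4% and 59.2% of the Rab5 UMIs, *Rab5a* 32.4%, 24.4% and 25.2%, and *Rab5b* 17.3%, 12.2% and 15.5%. In these 3 families, the shares of the stimulated libraries were closer to each other than to the unstimulated one, except for *Rab5b*, whose share in 24hr-KO lay nearer to that in 0hr-WT. The intervals of 0hr-WT and 24hr-WT did not overlap for any of the genes. The Rab6 family, which acts in traffic from the Golgi, differed by less than its counting error, with *Rab6a*, named after its values were seen, at 66.5%, 67.8% and 67.9% and overlapping intervals. *Rab1a* took 27.4%, 30.2% and 29.1% of the Rab1 UMIs, and its intervals in 0hr-WT (26.4% to 28.5%) and 24hr-WT (29.5% to 30.8%) did not overlap.

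**Figure D4:**
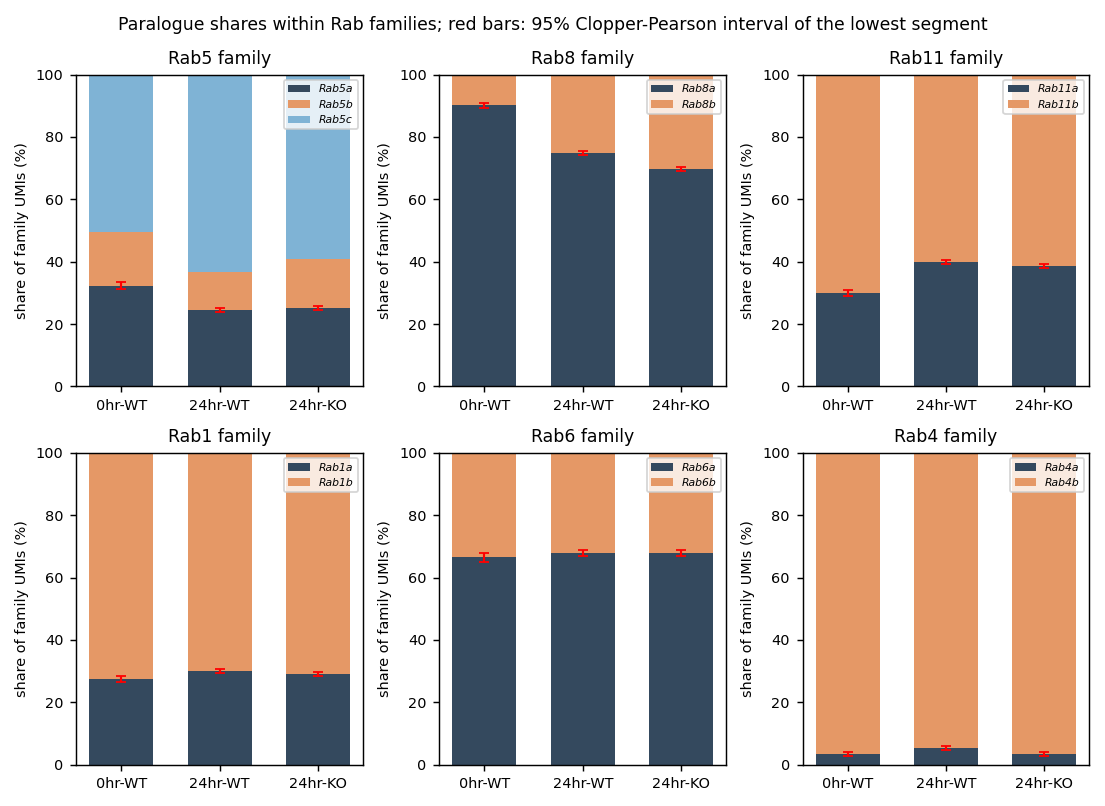
Share (%) of a family's UMIs taken by each paralogue in the 3 libraries, for the Rab5, Rab8, Rab11, Rab1, Rab6 and Rab4 families, with the 95% Clopper-Pearson interval of the lowest segment in red. The Rab8a segment shrinks from 0hr-WT to the stimulated libraries as *Rab8b* goes from 9.92% to 25.2% and 30.4%, while the Rab6 bars look alike.

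The second comparison asked how the Rab genes stood in stimulated cells that lacked IFT20. It shares the 24hr-WT library with the first one. The median log2 ratio of 24hr-KO over 24hr-WT was 0.09 over the members and 0.14 over all 13891 genes, with 34 members higher and 25 lower, where 9456 of all genes were higher and 4435 lower. At least 1.5-fold higher were 3 members (5.08%), where 14.0% of all genes were, and at least 1.5-fold lower were 2 members (3.39%), where 3.97% were. Under median-ratio scaling, which moved the median of all genes from 0.14 to -0.03, 2 members were higher and 3 lower by that fold. The other 54 members (91.5%) lay within 1.5-fold, against 82.0% of all genes. The 3 higher members were *Rab26*, *Rab11fip5* (8 and 13 UMIs) and, named after its values were seen, *Rab33a* (30 and 42 UMIs). The 2 lower members were *Rab4a* and *Rab30* (11 and 5 UMIs), the latter also named after its values were seen. Among the 52 members with 100 or more UMIs there was 1 higher and 1 lower, where 9.13% and 1.32% of genes with that many UMIs were.

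The Rab5, Rab8, Rab11 and Rab29 GTPase genes differed little between 24hr-WT and 24hr-KO. The paper cites work that places Rab4, beside Rab8 and Rab11, with IFT20 in receptor transport. Of that family, *Rab4a* was at least 1.5-fold lower in 24hr-KO and *Rab4b* was not, and both are given below. *Rab29* had a log2 ratio of -0.10 (-0.18 to -0.02), *Rab11a* -0.08 (-0.12 to -0.04) and *Rab11b* -0.00 (-0.03 to 0.03). *Rab8a* had a ratio of -0.10 (-0.13 to -0.07) and *Rab8b* 0.28 (0.22 to 0.33). *Rab5a*, *Rab5b* and *Rab5c* had ratios of -0.05, 0.25 and -0.19. All 8 of these Rab5, Rab8, Rab11 and Rab29 genes were within 1.5-fold, as were 82.0% of all genes and 89.5% of those with 100 or more UMIs. The most distant was *Rab8b*, whose ratio was 0.14 (0.07 to 0.21) in cells of 5000 to 20000 UMIs and -0.08 (-0.23 to 0.06) in cells under 5000 UMIs. The level of *Rab8b* was higher in the shallow cells of both libraries, at 108 CPM in 24hr-WT and 102 in 24hr-KO, than in those of 5000 to 20000 UMIs, at 40.1 and 44.2. Before filtering, the lowest barcode had 709 UMIs in 24hr-WT and 1493 in 24hr-KO, so the shallow cells of these libraries were not alike in depth. Shallow cells were 24.1% of 24hr-WT and 49.99% of 24hr-KO, with medians of 1853 and 2443 UMIs. Their median share of mitochondrial UMIs was 10.2% in 24hr-WT and 5.60% in 24hr-KO, against 1.28% and 1.07% in cells of 5000 to 20000 UMIs, and its part in the ratios was not tested.

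Of the members with 100 or more UMIs in these libraries, the lowest ratios were those of *Rab4a*, *Rab19*, *Rab12*, *Rab5c* and *Rab1a*. *Rab4a*, a Rab of fast recycling, had 114 UMIs in 0hr-WT, 322 in 24hr-WT and 188 in 24hr-KO, or 3.07, 2.75 and 1.77 CPM. The IFT20-KO library was the lowest, with a log2 ratio of -0.64 (-0.91 to -0.38), and the ratio was -0.75 (-1.07 to -0.42) in cells of 5000 to 20000 UMIs and -0.63 (-1.47 to 0.28) in cells under 5000 UMIs. It stayed below 0 under all 7 alternative settings. Its paralogue *Rab4b*, named after its values were seen, had 48.0 and 49.8 CPM, so *Rab4a* took 5.42% of the Rab4 UMIs in 24hr-WT and 3.42% in 24hr-KO. *Rab19* had a ratio of -0.47 (-0.68 to -0.26) over all cells and -0.76 (-1.01 to -0.51) in cells of 5000 to 20000 UMIs. *Rab12* had ratios of -0.36 (-0.55 to -0.17) and -0.53 (-0.76 to -0.29) in the same order. These 3 genes were further below 0 within the depth range than over all cells, with overlapping intervals, and all were under 5 CPM in both libraries. *Rab1a* had 50.1 and 44.0 CPM, a ratio of -0.19 (-0.25 to -0.13).

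The highest ratios were those of *Rab26*, *Rab3gap2*, *Rab23*, *Rab11fip2* and *Rab39b*. *Rab26*, known from secretory granules, had 48, 143 and 273 UMIs, or 1.29, 1.22 and 2.56 CPM, and a log2 ratio of 1.07 (0.77 to 1.37). Its ratio was 0.67 (0.18 to 1.16) in cells of 5000 to 20000 UMIs and -0.45 (-0.88 to -0.01) in cells under 5000 UMIs. In the shallow cells it had 13.0 CPM in 24hr-WT and 9.49 in 24hr-KO, far above its levels of 0.72 and 1.14 in the others. *Rab26* also shares exonic positions with *Traf7* on the same strand, so its UMIs are uncertain. *Rab3gap2*, a subunit of the complex that switches Rab3 off, had 8.43 and 12.2 CPM, with a ratio of 0.54 over all cells, 0.28 in cells of 5000 to 20000 UMIs and -0.16 (-0.42 to 0.11) in cells under 5000. *Rab23*, a Rab of ciliary signalling, had 6.39 and 9.23 CPM, with ratios of 0.53, 0.24 and -0.27 (-0.55 to 0.02). *Rab11fip2* had ratios of 0.51, 0.11 and -0.18 (-0.54 to 0.19). These 4 genes were thus higher in 24hr-KO over all cells and lower, or within the counting interval, among its shallow cells. The shallow cells were deeper in 24hr-KO than in 24hr-WT, as given above, and the part of this in the ratios was not tested. *Rab39b* had 118 and 150 UMIs, a ratio of 0.48 (0.13 to 0.84). The median over the members was -0.00 within 5000 to 20000 UMIs and -0.08 under 5000 UMIs, against 0.05 and -0.03 over all genes.

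**Figure D5:**
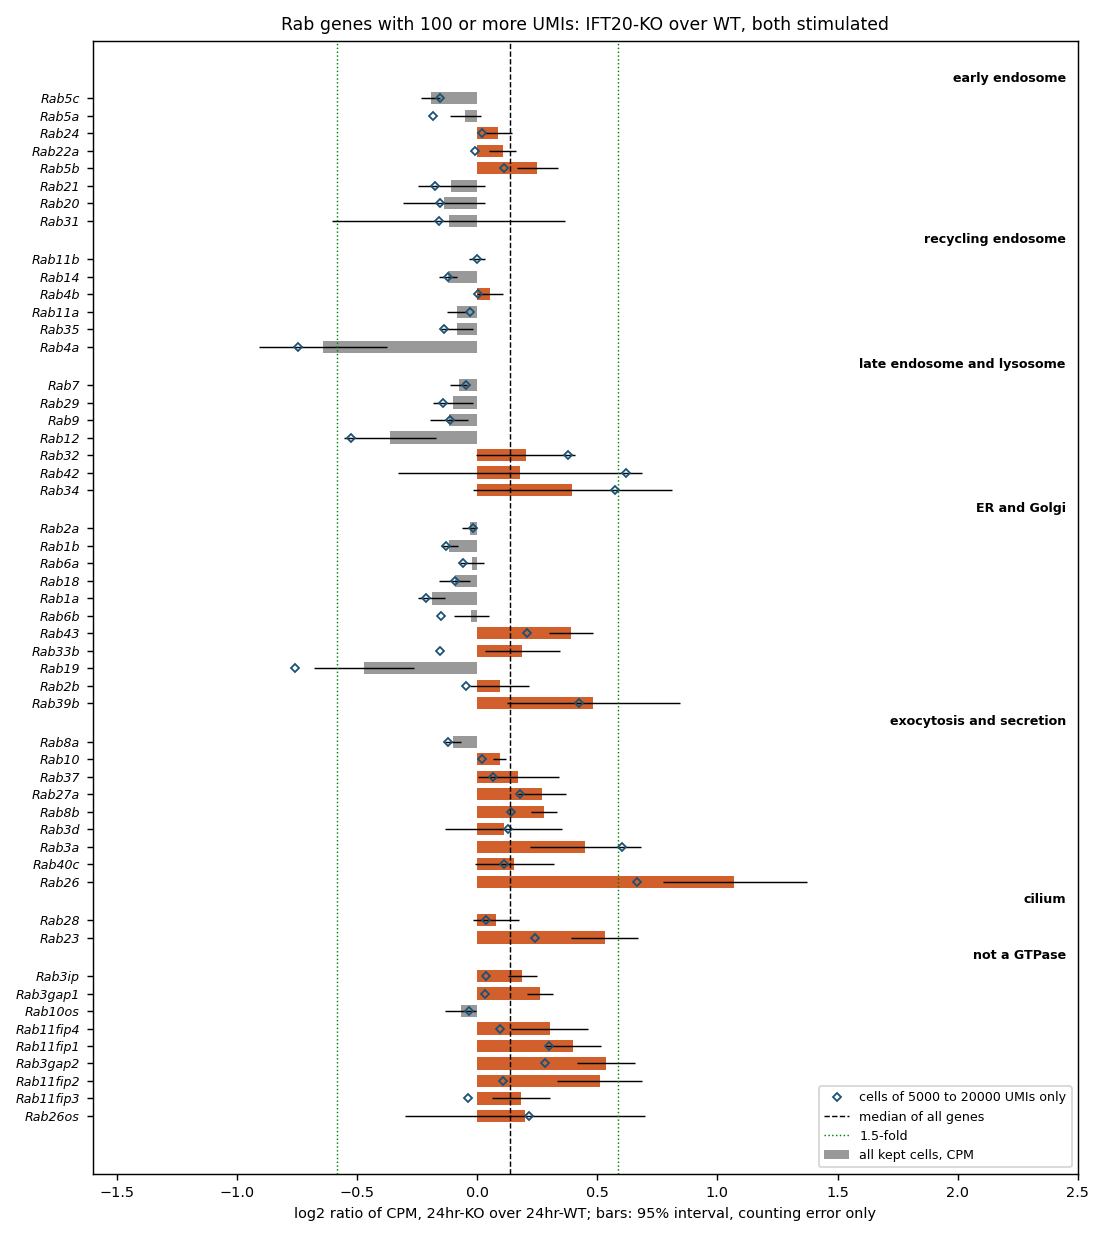
Log2 ratio of CPM, 24hr-KO over 24hr-WT, for the 52 Rab genes with 100 or more UMIs (bars, orange higher and grey lower, with 95% counting intervals), and the same ratio in cells of 5000 to 20000 UMIs (blue diamonds). Bars beyond the 1.5-fold lines are those of *Rab4a* (-0.64) and *Rab26* (1.07), and the diamond of *Rab26* (0.67) lies well short of its bar.

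The genes that modify, switch and read Rab proteins were taken as 5 lists. Of the 59 members, 3 were also counted in the GEF list, 5 in the effector list and 1 in the recycling list. None was in the GAP list, so *Rab3gap1* and *Rab3gap2* were not counted there. After stimulation the GEFs were the lowest of the lists, with a median log2 ratio of -0.80 over 39 genes. Of these 33 were lower, 16 at least 2-fold (41.0%, where 23.7% of all genes were), and 1 was at least 2-fold higher (18.7% of all genes were), *St5*, which had 2 UMIs in 0hr-WT and 26 in 24hr-WT (log2 ratio 2.04, 0.047 to 5.16) and was named after its values were seen. GAPs had a median of -0.40 over 33 genes, effectors -0.54 over 47, prenylation enzymes with the dissociation inhibitors -0.10 over 12, and the genes of IFT20-linked receptor recycling 0.02 over 34, beside -0.11 over all genes. With cells of at least 1400 UMIs thinned to 1400 and the others left out, the medians of GEFs and GAPs were -0.17 and 0.04, where that of all genes was 0.09. This setting held 7230 of 8031 cells in 0hr-WT and 9482 of 9903 in 24hr-WT.

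Some list members differed by far more than their lists. *Eea1*, the tether that Rab5 recruits to early endosomes, had 3.42 CPM in 0hr-WT, 78.7 in 24hr-WT and 83.7 in 24hr-KO, a log2 ratio of 4.52 (4.27 to 4.79) for stimulation. *Rilpl2*, a partner of Rab8 and Rab10, had 16.4, 269.8 and 298.6 CPM, a ratio of 4.04 (3.93 to 4.16). *Appl2*, another Rab5 effector, had 6.03, 1.16 and 2.32 CPM, a ratio of -2.38 (-2.69 to -2.06). *Eea1* and *Appl2* thus stood at opposite ends of the effector list, from which the highest and lowest ratios were named. *Rab5a* and *Rab5b* themselves were lower. *Tbc1d16*, a GAP for Rab4, had 319, 52 and 88 UMIs, with a ratio of -4.27 (-4.72 to -3.85). *Evi5*, a GAP for Rab11, had 16, 439 and 510 UMIs, with a ratio of 3.12 (2.41 to 3.94). *Tbc1d24* had a ratio of 2.26 (1.53 to 3.09) on 16 UMIs in 0hr-WT, and *Tbc1d22b* one of -1.63.

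*Tbc1d10c*, a GAP for Rab35 that was taken in the recycling list, had 286 CPM in 0hr-WT, 95.1 in 24hr-WT and 102 in 24hr-KO, a log2 ratio of -1.59 (-1.63 to -1.55). *Dennd1b*, a GEF for Rab35, had 31.2, 9.87 and 14.4 CPM, a ratio of -1.66 (-1.78 to -1.54). *Als2cl*, a relative of a Rab5 GEF, was the lowest of the GEFs, with 53.1, 5.89 and 7.33 CPM and a ratio of -3.17 (-3.30 to -3.05). The highest GEFs with 100 or more UMIs were *Ccz1*, a subunit of the Rab7 GEF, at 0.49 and *Hps4*, one of the GEF for Rab32, at 0.42. For lipid attachment, *Rabggtb*, the catalytic subunit of Rab geranylgeranyl transferase, had 42.9, 86.0 and 93.7 CPM, a ratio of 1.00 (0.93 to 1.08). *Ggps1*, which makes the lipid, had 56.3, 20.0 and 21.4 CPM, a ratio of -1.50 (-1.58 to -1.41). *Rce1*, a protease of prenylated proteins, had a ratio of 0.91, and *Rabac1*, which binds prenylated Rabs, one of -1.76 at 399, 118 and 116 CPM. In the recycling list, *Stx11*, a SNARE of granule release, had 1.48, 17.0 and 18.3 CPM, a ratio of 3.52 (3.14 to 3.94). The ATPases *Ehd4* and *Ehd3*, which shape recycling endosomes, had ratios of 2.32 and -3.09.

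For IFT20-KO over WT, the medians were 0.32 for GAPs, 0.29 for effectors, 0.27 for GEFs, 0.11 for prenylation and 0.07 for the recycling genes, beside 0.14 over all genes. Within 5000 to 20000 UMIs they were 0.16, 0.14, 0.03, 0.03 and 0.03, beside 0.05 over all genes. Of the GEFs 8 (20.5%) and of the GAPs 8 (24.2%) were at least 1.5-fold higher over all cells and none was lower by that fold, where 14.0% of all genes were higher and 3.97% lower. The recycling list had 1 gene past 1.5-fold, *Ift20* itself. Its next lowest was *Vps29*, a retromer subunit, at -0.15 (-0.19 to -0.12), and its highest were *Ift88* at 0.40 and *Ccdc28b* at 0.37. The log2 ratio of *Appl2* was 1.00 (0.69 to 1.31), and also 1.00 in cells of 5000 to 20000 UMIs. *Ehbp1*, a Rab8 and Rab10 effector, had 49 and 98 UMIs, a ratio of 1.14 (0.63 to 1.66). *Dennd4a* and *Dennd4c*, GEFs for Rab10, had ratios of 0.80 and 0.79, which were 0.39 and 0.41 within that depth range. *Tbc1d16* and *Tbc1d24* had ratios of 0.90 and 0.82. *Chm* and *Chml*, the escort proteins that present new Rabs for lipid attachment, had ratios of 0.38 and 0.75, the latter on 71 and 109 UMIs, while *Rabggta* was at -0.14. The 2 lowest ratios of each other list, among genes with 100 or more UMIs, lay between *Sh3bp5l*, a GEF for Rab11, at -0.23 (-0.34 to -0.13) and *Unc13d*, a Rab27a effector, at -0.06 (-0.13 to 0.01).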

How the data were processed

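The authors sorted the cells, made 10x libraries, counted UMIs with Cell Ranger (version 3.1.0 per the file headers, mm10 per the labels) and deposited whole-number counts of UMIs per gene and barcode, without normalization. The labels name a 5′ kit and the paper's methods a 3′ kit, so the captured end of a transcript is uncertain. Counts were summed over the cells with over 200 genes and less than 15% mitochondrial UMIs, which gave 37133949, 116979076 and 106435143 UMIs in 0hr-WT, 24hr-WT and 24hr-KO. CPM has an exact Poisson interval, log2 ratios and shares have an exact binomial (Clopper-Pearson) interval, all at 95% and for counting error only. A count of 0 was set to a floor of 3 counts for its ratio. With 1 library per condition no test was made, and cells were not used as replicates. Doublets were not removed.

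The members and gene lists were chosen with earlier results of these data known. Named were the Rab5, Rab8, Rab11 and Rab29 symbols, the 5 highest members in 0hr-WT, per comparison the 5 highest and 5 lowest members and those past 2-fold with 100 or more UMIs over both libraries, the 2 highest and 2 lowest such genes of each list, and *Ift20*. Not every one is given with its values. Membrane sites were assigned from general knowledge, 1 per gene. Gene positions, overlaps and coding sequences are from GENCODE M21, which held all 59 identifiers. The alternatives were all barcodes, more than 1000 genes with under 10% mitochondrial UMIs, median-ratio scaling, UMIs per cell, the mean of per-cell fractions, cells thinned to 1400 UMIs, cells of 5000 to 20000 UMIs, and other member minimums of 100 and 1 UMIs or GTPases alone. Cells under 5000 UMIs and *Foxp3* cells were set apart after the data had been seen. The intervals were checked on counts simulated with counting error alone. That check does not cover variation between cells, mice or libraries. Python 3.11.15, numpy 2.4.6, scipy 1.17.1, pandas 2.3.3 and matplotlib 3.10.9 were used.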

Additional observations from a re-analysis of the deposited data

How the results depend on the processing

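Of the medians and counts over the members, 49 values under the alternatives stayed within the limits set and 11 moved. Of the other values compared, 571 stayed, 313 moved and 5 reversed. For stimulation, 36 members changed direction in UMIs per cell, 17 with thinned cells and 9 with the mean of per-cell fractions. With median-ratio scaling 8 did so, and in cells of 5000 to 20000 UMIs 6 did, 3 of them with 100 or more UMIs. The 6 include *Rab30* and *Rab36*, with 8 and 11 UMIs in 24hr-WT and 0 in 0hr-WT within that range. Their lower sign there came from the floor of 3 counts. For IFT20-KO, 32, 9, 10, 10 and 6 members changed direction in the same order of settings. UMIs per cell moved most. The median for stimulation went from -0.23 to 1.12, and its counts past 2-fold to 39 higher and 1 lower. The median for IFT20-KO went from 0.09 to -0.53, and its counts past 1.5-fold to 0 higher and 25 lower (2.77% and 37.5% of all genes). This setting keeps the difference in UMIs per cell between the libraries, in which sequencing depth and RNA content cannot be told apart. In that setting *Rab11fip2* (0.10), *Rab27a* (0.093), *Rab20* (0.17), *Rab3ip* (0.17) and *Rab35* (0.35), at least 2-fold lower in CPM after stimulation, were higher per cell. The 3 members at least 1.5-fold higher in 24hr-KO became 6 with the stricter cell filter (18.2% of all genes, 14.0% before), 7 with thinned cells (15.3%) and 1 among members with 100 or more UMIs, and the 2 lower became 5 in cells of 5000 to 20000 UMIs (5.67% of all genes, 3.97% before) and 1 among members with 100 or more UMIs. Apart from what the settings themselves set (fewer UMIs, cells or genes), the cause was not tested. Both comparisons rest on 1 library a condition, so no replicate could be left out, and the small ratios of members under 5 CPM rest on few UMIs. No paired analysis was possible because each group has 1 library.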

Other observations

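Within the unstimulated library, 343 of 8031 cells held at least 1 UMI of *Foxp3*, the transcription factor of regulatory T cells, and these cells were set beside the other 7688 at close median depths of 4583 and 4627.5 UMIs. The comparison is within 1 library, the cells are not replicates, and the genes below were named after their values were seen. *Rab11fip1*, a Rab11 effector, had 20.4 CPM in the *Foxp3* cells and 10.6 in the others, a log2 ratio of 0.94 (0.39 to 1.45). *Rab8b* had 33.5 and 19.5 CPM, a ratio of 0.78 (0.36 to 1.18), whereas *Rab8a* had 173 and 183 CPM, a ratio of -0.08 (-0.26 to 0.09). *Rab29* had 18.6 and 28.3 CPM, a ratio of -0.61 (-1.17 to -0.09), and *Rab6a* 46.1 and 69.1 CPM, a ratio of -0.58 (-0.93 to -0.26). Of 50 members, 5 were counted as at least 1.5-fold higher and 5 as lower in the *Foxp3* cells. The 5 counted as higher include *Rab31*, which had 0 UMIs in the *Foxp3* cells and 31 in the others. Its ratio came from the floor of 3 counts, so it was not higher by its UMIs. The share of all genes past that fold was not taken, so these counts are not read as a result about the members. The median over these members was 0.01, beside 0.07 over all genes. *Foxp3* itself had 19.8 CPM in 0hr-WT, 3.12 in 24hr-WT and 4.69 in 24hr-KO.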
